A study of Mus musculus with 24 samples.

Results

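Fibro/adipogenic progenitors (FAPs), the stromal cells of skeletal muscle, were compared between injured and uninjured muscle of old mice across all genes measured. The comparison took 12 of the 24 arrays of the study: 6 of old activated FAPs, isolated 3 days after glycerol, and 6 of old quiescent FAPs, isolated from muscle with no injection. All 12 came from wild-type C57BL/6J males aged 20 to 24 months, from tibialis anterior, gastrocnemius and quadriceps muscles pooled together. The activated group had received 50 µl of 50% v/v glycerol into these muscles. The same contrast in mice of 2 to 4 months, again 6 arrays per state, served for 1 comparison near the end. Cells were sorted fresh by gates that the sources used here do not name, so which other cells could pass is unknown. The labels call the arrays of a group biological replicates without saying how many mice each array pooled. Each group's columns carry 1 letter of their own, and a batch marked by that letter cannot be told apart from age and state.

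FAPs lie between muscle fibres, express the PDGF receptor Pdgfra and do not form muscle themselves. After an injury they leave quiescence, divide, lay down transient matrix and secrete factors that act on muscle stem cells, and are later cleared. When clearance fails they can turn into fibroblasts or fat cells, and glycerol is a standard injury for studying the second fate because it leaves fat in the regenerating muscle. Macrophages arrive in the same days and remove dead fibres, and their signals govern how many FAPs survive.

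The values are normalized log2 intensities of Illumina bead arrays, where a difference of 1 is a 2-fold change and a probe at background reads a little above 4. Where only some arrays of a group detected a gene, its fold rests in part on such background values and its size is uncertain. A gene's change is the activated mean minus the quiescent mean with its standard error (SE, n = 6 per group), and a gene was called higher or lower at a limma p under 0.05 after Benjamini-Hochberg adjustment over 8148 features. Between 6587 and 9943 probes were detected on the old activated arrays (mean 8351 ± 1091, SD, n = 6) and between 7188 and 9365 on the old quiescent arrays (8061 ± 792.9). The first principal component of the 12 arrays held 36.8% of the variance and placed activated arrays at 26.48 to 52.5 and quiescent arrays at -56.17 to -4.866. The quiescent array closest to the activated ones was number 2.

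The sorted cells carried FAP genes, and genes of other cell types too. Of 20 FAP and fibroblast markers 15 passed the detection filter, and Pdgfra was detected on all 12 arrays, at 10.98 to 11.84 (median 11.67) on activated and 11.64 to 12.99 (median 12.79) on quiescent arrays. The decorin gene Dcn, a fibroblast proteoglycan, was among the brightest, at 12.76 to 13.73 (median 13.28) and 13.97 to 14.11 (median 14.04). Ly6a, which encodes the FAP antigen Sca-1, is not named on the array. Probes for the leukocyte antigen Ptprc, the muscle stem cell factor Pax7, the integrin subunit Itga7 and the collagen gene Col1a1 did not pass the filter. Macrophage and monocyte genes were present in both states and higher after glycerol: 16 of 18 measured rose and 0 fell. Their mean level per array was 10.06 to 11.06 (median 10.30) on activated and 7.26 to 10.34 (median 7.95) on quiescent arrays. The highest quiescent level, 10.34 on array 2, lay inside the activated range. FAP markers moved the opposite way, with 11 of 15 lower and their mean going from 9.86 to 10.63 (median 10.20) on quiescent to 8.53 to 9.45 (median 9.03) on activated arrays, without overlap. The 1 FAP marker called higher, the surface antigen Thy1, changed by 0.82 ± 0.29 (adjusted p = 0.0377), and its call was lost without activated array 2, 3, 4 or 5 or quiescent array 2, 3 or 4 (adjusted p up to 0.0992). In such mixed RNA, fewer cells of a type and less RNA per cell cannot be told apart. The part of these other cells in the results was not tested, apart from the values of quiescent array 2 and of a fit with each array's macrophage level as a covariate, chosen after seeing the data, which stand beside the main results and, for the other lists, in 1 paragraph after them.

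Other cell types also left RNA on these arrays. Endothelial markers averaged 8.20 to 9.56 (median 8.67) on quiescent and 7.60 to 8.19 (median 7.87) on activated arrays, with 5 of 13 lower, and pericyte and smooth muscle markers 6.87 to 8.07 (median 7.49) and 6.50 to 6.82 (median 6.57), with 3 of 11 lower. Red blood cell genes averaged 8.80 to 11.25 (median 9.38) against 7.24 to 8.37 (median 7.81), and all 4 measured fell. B and plasma cell markers spanned 6.51 to 9.96 (median 7.03) on quiescent and 5.62 to 6.44 (median 5.95) on activated arrays, with the highest level on old quiescent array 6. Quiescent array 2 had the highest endothelial, mural, red cell and neutrophil levels of the 12. Neutrophil genes averaged 6.22 to 6.87 (median 6.51) on activated and 5.24 to 7.33 (median 5.81) on quiescent arrays. Of the T and NK cell markers 5 of 8 fell and 1, Klrd1, named here after its value was seen, rose. Muscle fibre genes gave 4 of 13 lower, and the 4 measured muscle stem cell and myoblast markers gave no call in either direction. Without quiescent array 2 and activated array 4 the red cell count was 2 lower and the muscle fibre count 1 lower and 1 higher.

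**Figure D1:**
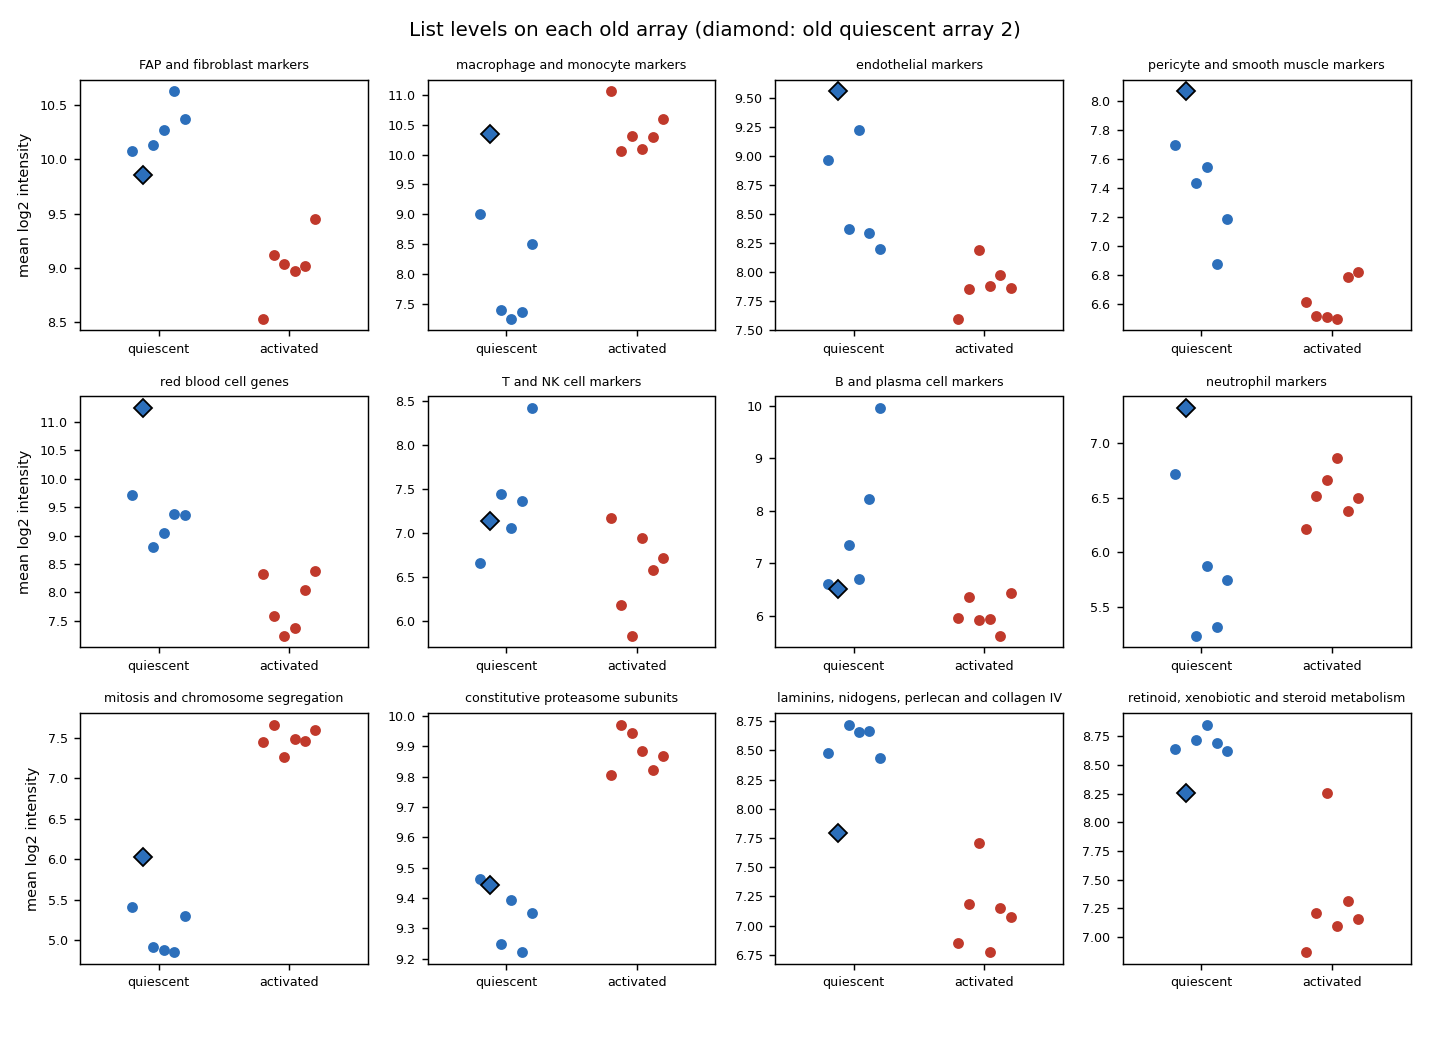
Mean log2 intensity of the measured members of 12 gene lists on each of the 6 old quiescent (blue) and 6 old activated (red) arrays, 1 point per array, with old quiescent array 2 as a diamond. Quiescent array 2 reads like an activated array for macrophage markers and apart from them for mitosis and proteasome genes.

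At 3 days after glycerol, genes of cell division, protein turnover and myeloid cells were higher on the old activated arrays. Genes of basement membrane, elastic fibres, growth factor signalling and xenobiotic metabolism were lower. Old and young FAPs here and below mean the sorted samples, whose RNA is mixed. Which cells carry each change was not tested. Of 7576 named genes 2155 were called, 1097 higher (14.5%) and 1058 lower (14.0%), and 1294 of these differed at least 2-fold. At least 4-fold changes were found for 151 genes upward and 126 downward. On 8.96% of genes, 679 in number, the 6 activated and the 6 quiescent arrays did not overlap, with 333 activated groups above and 346 below. Changes ran from -4.34 to 4.79 on the log2 scale around a median of -0.0041 over all genes.

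The genes that rose most belonged to cell division and to myeloid cells. Arg1, the arginase that marks wound macrophages, read 8.59 to 10.13 (median 9.44) on activated and 4.22 to 5.88 (median 4.25) on quiescent arrays, where 1 of 6 detected it. Activated and quiescent arrays lay far apart for this gene, and it rose 27.7-fold (log2 change 4.79 ± 0.34, adjusted p = 1.77e-09). The size of that fold rests on undetected quiescent values at background. Osm, encoding oncostatin M of the IL-6 family, read 8.83 to 11.37 (median 10.65) after glycerol and 4.33 to 10.79 (median 5.90) before. Its highest quiescent value, on array 2, reached into the activated range, and the rise was 15.1-fold (adjusted p = 0.00237). Chil3, a secreted chitinase-like protein of macrophages, rose 14.8-fold, the myeloid lectin receptor Clec4d 14.0-fold and the lipid-sensing receptor Trem2 10.7-fold. Alox5ap, which presents arachidonic acid to the leukotriene-forming lipoxygenase, read 11.48 to 12.28 (median 12.11) on activated and 6.62 to 10.96 (median 8.09) on quiescent arrays. It was detected on all 12 arrays, did not overlap between the groups and rose 11.8-fold (adjusted p = 7.19e-06). Syngr1, a synaptogyrin of vesicle membranes, and Arl11, a small GTPase of the ARF family, rose 10.9-fold and 10.4-fold, and the macrophage membrane protein Ms4a6d 10.9-fold. The other leading genes, Tk1, Cdca3, Kif22, Kif2c, Cenpa and Mcm5, act in the cell cycle.

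The genes that fell most encode enzymes, secreted factors and membrane proteins. Ces1d, a carboxylesterase, read 5.10 to 8.64 (median 6.95) on activated and 9.83 to 11.68 (median 11.31) on quiescent arrays. All activated arrays lay below all quiescent ones, a fall of 20.3-fold (log2 change -4.34 ± 0.47, adjusted p = 4.51e-07). Inmt, a methyltransferase of small amines, read 7.36 to 12.93 (median 9.14) after glycerol and 12.93 to 13.77 (median 13.33) before. Its groups overlapped because of activated array 3, which kept a quiescent level while the other 5 activated arrays were at most 9.41, and the mean fall was 14.7-fold (adjusted p = 2.32e-05). The tight junction gene Cldn10 fell 17.2-fold, the glutathione transferase Gsta3 14.5-fold and the ADP receptor P2ry1 12.9-fold. Wfdc1, a small secreted protein with a WAP domain, read 4.32 to 5.24 (median 4.82) and 7.36 to 9.01 (median 8.38), with no overlap and a 12.2-fold fall (adjusted p = 3.1e-09). Camk2n1, an inhibitor of the kinase CaMKII, fell 10.1-fold, the secreted glycoprotein Reln 10.1-fold and Crispld2, a secreted protein, 8.57-fold. Cox8b, a subunit of cytochrome oxidase known from muscle and brown fat, fell 9.40-fold and Tceal5 9.44-fold, the latter detected on 1 of 6 activated arrays. The remaining leaders, Ltbp4, Fgf10, Timp3 and Tnxb, belong to the matrix and growth factor groups described further on.

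**Figure D2:**
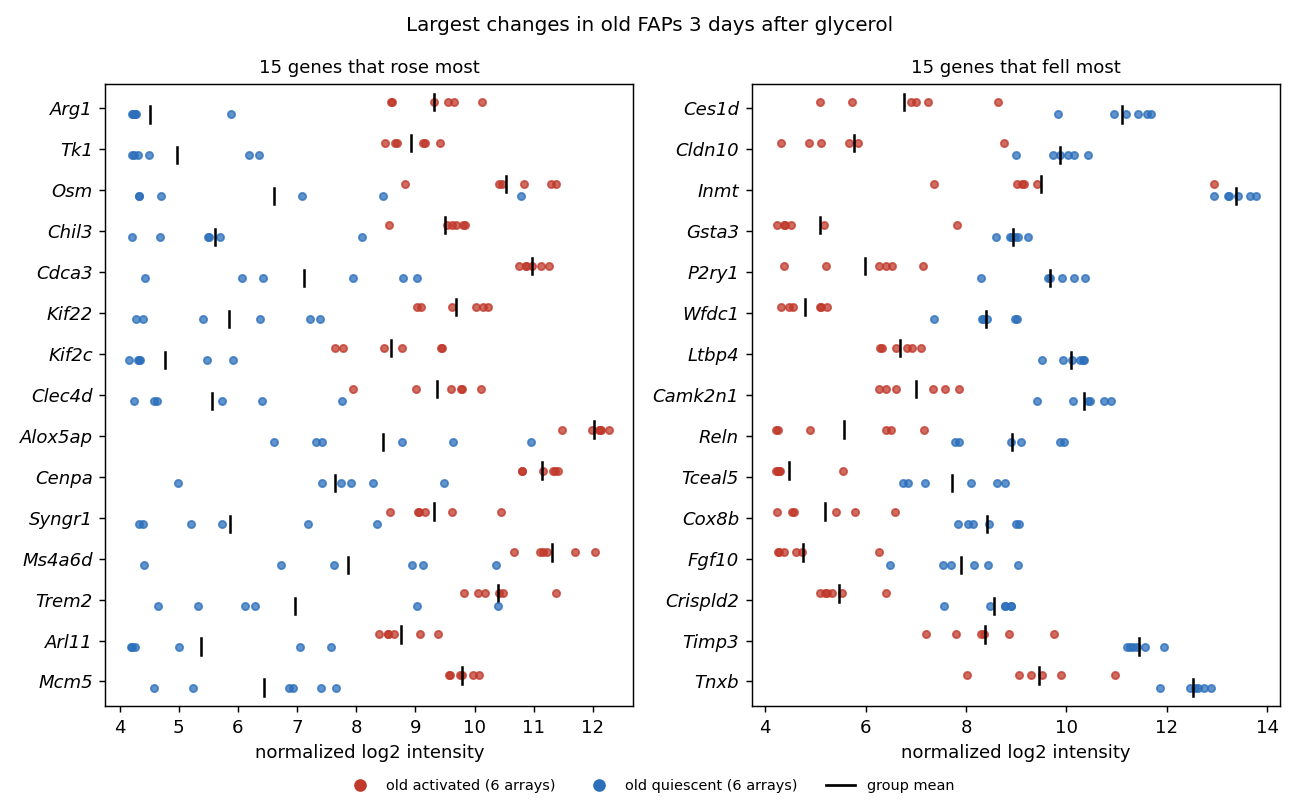
Normalized log2 intensity (horizontal axis) of the 15 genes that rose most and the 15 that fell most in old FAPs, with 6 activated arrays in red, 6 quiescent arrays in blue and group means as black bars. Among the risen genes Osm and Trem2 overlap between the groups, and among the fallen genes Inmt does, through a single activated array at 12.9.

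Cell division genes rose in old FAPs after glycerol. Of 17 measured mitosis and chromosome segregation genes 15 rose and 0 fell, with a median log2 change of 2.23 against -0.0041 for all genes. Of the 17, 14 separated the arrays without overlap, against 8.96% of all genes. No old quiescent array detected 3 of the 17. These passed the filter through other groups, so their rise and separation are no independent support. Cdca3, which helps degrade the mitosis inhibitor Wee1, read 10.75 to 11.26 (median 10.92) on activated and 4.44 to 9.03 (median 7.19) on quiescent arrays. The activated values were tight, the quiescent ones spread over a wide range below them, and the rise was 14.5-fold (adjusted p = 8.67e-06). The chromosome-moving kinesin Kif22 read 9.02 to 10.23 (median 9.82) and 4.28 to 7.38 (median 5.89), a 14.4-fold rise with no overlap. Kif2c, the kinesin that corrects faulty attachments at centromeres, read 7.64 to 9.45 (median 8.62) and 4.17 to 5.92 (median 4.34), also apart (14.2-fold, adjusted p = 1.23e-08), with detection on 2 of 6 quiescent arrays. Cenpa, the histone H3 variant that defines the centromere, read 10.80 to 11.41 (median 11.24) and 4.99 to 9.48 (median 7.83) and rose 11.4-fold. Cdc20, an activator of the anaphase-promoting complex, rose 6.52-fold, the mitotic kinase Plk1 6.24-fold, the passenger protein Birc5 5.82-fold and the mitotic kinase Cdk1 3.98-fold. Cdk1 and Birc5 were each detected on 1 of 6 quiescent arrays, near background. The mean level of the whole list was 7.26 to 7.66 (median 7.47) on activated and 4.85 to 6.03 (median 5.12) on quiescent arrays. Quiescent array 2, with a macrophage level inside the activated range, was the highest quiescent array for mitosis genes at 6.03 and still lay below every activated array. With the macrophage level of each array as a covariate 12 of 17 were called higher.

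DNA synthesis genes followed. Among 28 measured replication genes 19 rose and 0 fell (median 0.84), and 6 were called with the macrophage covariate (median 0.80). Tk1, the thymidine kinase of dividing cells, read 8.48 to 9.42 (median 8.91) and 4.21 to 6.36 (median 4.40), the 2 groups apart, and rose 15.5-fold (log2 change 3.96 ± 0.34, adjusted p = 1.39e-08). Mcm5, a subunit of the replicative helicase, read 9.57 to 10.08 (median 9.77) and 4.58 to 7.66 (median 6.90) and rose 10.1-fold (adjusted p = 1.07e-06). Mcm10, which helps fire the helicase, rose 8.11-fold, with 1 of 6 quiescent arrays detecting it, and the flap endonuclease Fen1 5.96-fold. Uhrf1, which carries DNA methylation through replication, rose 5.48-fold, and the maintenance methyltransferase Dnmt1 that it recruits 1.95-fold. Nucleotide supply moved with them, with 10 of 19 genes higher and 0 lower (median 0.76). The ribonucleotide reductase subunits Rrm1 and Rrm2 rose 5.98-fold and 5.77-fold, and thymidylate synthase Tyms 2.85-fold. Rrm2 read 6.86 to 7.34 (median 7.27) on activated and 4.20 to 5.44 (median 4.45) on quiescent arrays, which do not overlap. For Tk1 and Rrm2 the quiescent median lay under 4.70, the lowest signal detected on any old quiescent array. The size of both folds thus rests in part on background values. In homologous recombination and Fanconi anaemia repair 6 of 13 rose and 0 fell, among them the helicase Blm (8.28-fold), the nuclease subunit Mre11a (3.25-fold) and Rad54l (at least 1.66-fold, no quiescent array detecting it). In condensin, cohesin and nucleosome assembly 7 of 15 rose, with the condensin subunits Ncaph (5.21-fold) and Ncapd2 (at least 1.87-fold) and the chromatin assembly subunits Chaf1b (3.39-fold) and Chaf1a (2.79-fold).

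Part of the regulators of the cycle shifted in the same direction. In the list of cyclins, their kinases and E2F factors 8 of 19 rose and 0 fell. E2f1, which drives S-phase genes, read 8.02 to 9.57 (median 9.07) and 6.02 to 7.60 (median 6.92), did not overlap and rose 4.28-fold (adjusted p = 0.000468). Foxm1, which drives mitosis genes, was detected on all 6 activated and on no quiescent arrays, and rose at least 2.24-fold (adjusted p = 0.000208). Of 20 cyclin-dependent kinase inhibitors and p53 targets 2 fell and 1, an inhibitor, rose. Both shares are under the 14.0% lower and 14.5% higher of all genes. Cdkn1c, the inhibitor p57 that holds stem cells in quiescence, read 9.66 to 10.92 (median 10.04) on activated and 11.93 to 13.36 (median 13.27) on quiescent arrays. The arrays did not overlap, quiescent array 2 was the lowest of its group, and the gene fell 7.64-fold (log2 change -2.93 ± 0.24, adjusted p = 7.47e-09). Gadd45g, a growth arrest gene, fell 2.14-fold from a bright level. Cdkn1a, encoding p21, changed by 0.56 ± 0.28 (adjusted p = 0.140). The senescence gene Cdkn2a changed by -0.06 ± 0.25 at background, with detection on 2 of 6 activated and 1 of 6 quiescent arrays. The proliferation marker Mki67 and the cyclin gene Ccnb1 are not named on the array, and the Top2a probe did not pass the filter.

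**Figure D3:**
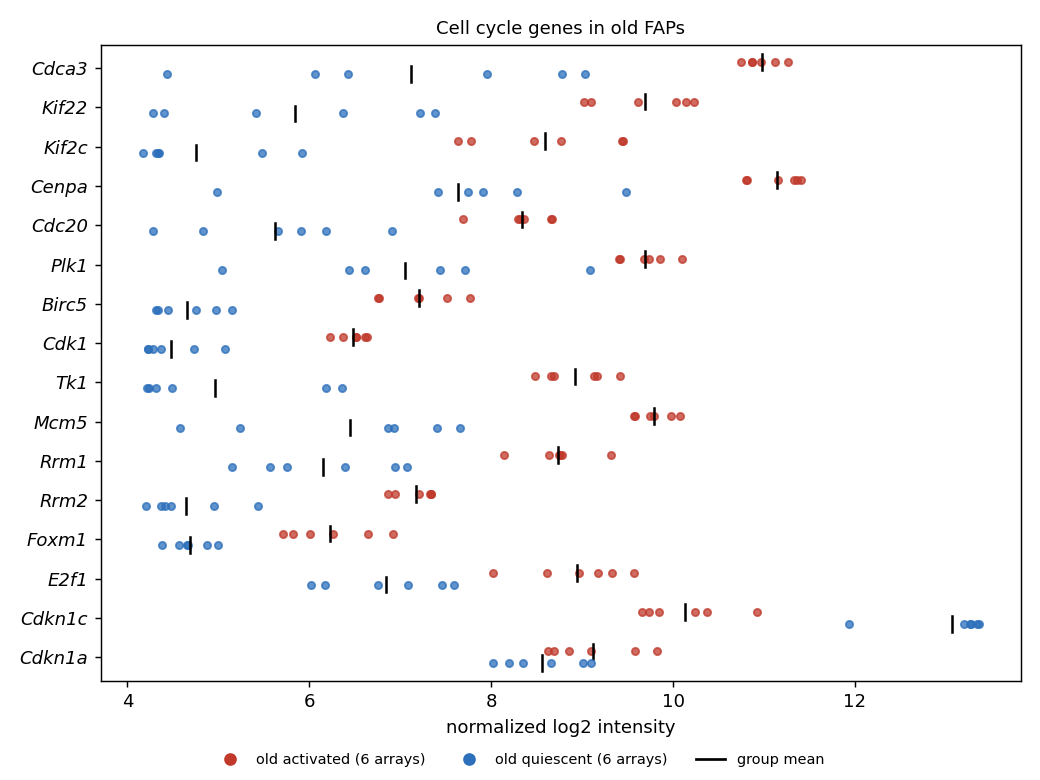
Normalized log2 intensity (horizontal axis) of 16 cell cycle genes on 6 old activated (red) and 6 old quiescent (blue) arrays, with group means as black bars. Activated arrays lie above quiescent ones for 14 genes and below them for Cdkn1c, while Cdkn1a overlaps.

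Promoters of the 4 mitosis and 2 replication genes with the largest rise are given here because late cell cycle genes share a pair of promoter elements. The cell cycle homology region (CHR, TTTGAA), bound by the DREAM and MuvB complexes, acts together with CCAAT boxes bound by NF-Y, whereas E2F sites are typical of S-phase genes. Each sequence spans 300 bases around the gene's first listed start in RefSeq, mouse build GRCm38.p6, at chr6:124829926-124830225 (plus strand) for Cdca3, chr7:127042371-127042670 (minus strand) for Kif22, chr4:117178723-117179022 (minus strand) for Kif2c, chr5:30666636-30666935 (plus strand) for Cenpa, chr11:117825965-117826264 (minus strand) for Tk1 and chr8:75109259-75109558 (plus strand) for Mcm5. Capitals mark, on either strand, CHR elements and CCAAT boxes in the 4 mitosis promoters and E2F sites (TTTGGCGC, TTTCCCGC or TTTCGCGC) and CCAAT boxes in the other 2.
Cdca3: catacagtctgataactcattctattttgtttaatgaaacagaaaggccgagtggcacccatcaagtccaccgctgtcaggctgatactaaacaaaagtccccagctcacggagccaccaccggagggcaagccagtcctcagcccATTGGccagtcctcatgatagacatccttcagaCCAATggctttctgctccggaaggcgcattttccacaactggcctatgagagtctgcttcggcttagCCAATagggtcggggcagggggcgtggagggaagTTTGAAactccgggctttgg
Kif22: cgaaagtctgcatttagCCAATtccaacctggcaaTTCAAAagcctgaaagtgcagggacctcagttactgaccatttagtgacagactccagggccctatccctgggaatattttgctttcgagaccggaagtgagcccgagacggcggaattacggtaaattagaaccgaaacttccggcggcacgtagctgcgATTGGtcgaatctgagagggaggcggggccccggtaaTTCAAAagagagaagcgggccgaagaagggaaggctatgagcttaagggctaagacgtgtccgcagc
Kif2c: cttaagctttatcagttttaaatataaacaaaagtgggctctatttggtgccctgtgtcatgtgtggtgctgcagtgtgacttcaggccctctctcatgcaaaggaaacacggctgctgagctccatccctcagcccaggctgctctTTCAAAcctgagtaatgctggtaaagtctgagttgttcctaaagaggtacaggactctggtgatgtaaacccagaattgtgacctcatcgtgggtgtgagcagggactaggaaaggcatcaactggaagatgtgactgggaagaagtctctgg
Cenpa: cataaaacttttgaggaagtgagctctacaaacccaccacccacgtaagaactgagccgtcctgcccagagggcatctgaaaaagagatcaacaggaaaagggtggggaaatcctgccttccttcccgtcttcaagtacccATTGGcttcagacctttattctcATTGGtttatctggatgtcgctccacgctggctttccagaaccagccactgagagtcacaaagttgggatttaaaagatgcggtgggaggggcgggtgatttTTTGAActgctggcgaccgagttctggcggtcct
Tk1: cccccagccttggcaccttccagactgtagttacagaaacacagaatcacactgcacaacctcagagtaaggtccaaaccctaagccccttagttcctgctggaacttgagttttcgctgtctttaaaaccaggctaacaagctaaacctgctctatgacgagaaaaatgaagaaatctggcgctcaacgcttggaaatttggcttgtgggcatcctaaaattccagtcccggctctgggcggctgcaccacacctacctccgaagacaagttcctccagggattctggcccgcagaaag
Mcm5: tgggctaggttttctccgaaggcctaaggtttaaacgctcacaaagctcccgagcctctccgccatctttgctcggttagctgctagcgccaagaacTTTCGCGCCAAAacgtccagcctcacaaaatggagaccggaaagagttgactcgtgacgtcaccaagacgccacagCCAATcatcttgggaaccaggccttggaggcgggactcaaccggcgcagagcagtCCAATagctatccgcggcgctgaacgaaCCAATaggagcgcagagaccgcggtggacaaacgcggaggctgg
Cdca3 holds 1 CHR element and 3 CCAAT boxes, Kif22 2 of each, Kif2c 1 CHR element and 0 CCAAT boxes, and Cenpa 1 and 2. In Mcm5, 3 CCAAT boxes stand beside 2 overlapping E2F matches, and in Tk1 none of these letters occur in the window.

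Over the whole list, the CHR letters were found in 12 of the 14 risen mitosis genes that have a promoter in the table (85.7%), against 11.8% of the 6182 tested genes with a promoter and 18.1% of all 27025 promoters of the same length. CCAAT was found in 71.4% of the same 14, against 38.9% and 37.9%. The E2F letters were found in 4 of 16 risen replication genes (25%), against 3.66% and 1.91%, the CHR letters in 3 of these 16 (18.8%) and CCAAT in 10 of them (62.5%). A match describes the sequence and is not a measured site.

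Replication-dependent histone genes, whose mRNAs accumulate in S phase, were higher as a group. Of 38 measured 24 rose and 1, H2bc6, fell, with a median change of 1.11 over the list. H2ac7 read 11.21 to 12.84 (median 12.07) on activated and 6.60 to 10.81 (median 8.84) on quiescent arrays. H2ac11 read 10.07 to 11.78 (median 10.88) and 5.89 to 9.56 (median 7.46). Both separated the groups, rising 8.94-fold and 8.56-fold (adjusted p = 2.05e-05 and 1.37e-05). H2ac15 and H2ac12, at 8.47-fold and 8.25-fold, moved with them. These genes are near-identical copies in clusters, and a probe for 1 copy may read others, so the count of separate genes is uncertain. H2bc6 fell 2.10-fold (adjusted p = 0.0171) and lost its call without quiescent array 3 (adjusted p = 0.053). Without quiescent array 2 and activated array 4 the count was 19, and with the macrophage covariate 3.

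Genes of protein turnover rose in old activated FAPs, and lists of the gene expression machinery gave lower shares. Of the constitutive proteasome subunits and assembly factors 18 of 30 rose and 0 fell, by a median of 0.48 log2 units. Psmg1, a chaperone of proteasome assembly, rose 3.28-fold, the deubiquitinating lid subunit Psmd14 2.05-fold, the base ATPase Psmc3 1.98-fold and the lid subunit Psmd12 1.92-fold. The list averaged 9.80 to 9.97 (median 9.88) on activated and 9.22 to 9.46 (median 9.37) on quiescent arrays, and quiescent array 2 at 9.44 stayed within its own group. Under the macrophage covariate 2 were called, while the median stayed at 0.48. Among nucleolar ribosome biogenesis genes 7 of 33 rose (21.2%, against 14.5% of all genes) and 0 fell. They included the small RNA-binding protein Nhp2 (2.60-fold), the rRNA methyltransferase fibrillarin Fbl (2.37-fold) and Rrp12 (2.74-fold). Ribosomal proteins gave 4 of 55 higher, under the 14.5% of all genes, and a median of -0.04, led by Rpl13a (1.87-fold). Aminoacyl-tRNA synthetases gave 5 of 17 higher (29.4%), among them those for arginine (Rars, 2.29-fold) and valine (Vars, 2.19-fold). Splicing factors gave 9 of 42 (21.4%), among them Snrpa1 of the U2 particle (2.72-fold) and the Sm protein Snrpd1 (1.82-fold). No measured member of the last 3 lists fell.

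Chaperones split by kind. Of 24 measured 6 rose, led by the chaperonin subunits Tcp1 (2.10-fold) and Cct6a (2.05-fold), which fold actin and tubulin. The 7 that fell are induced by heat or stress or are small heat shock proteins: Hspa1a (HSP70) fell 3.86-fold and its exchange factor Hsph1 3.82-fold, and the others were Hspb1, Dnajb1, Bag3, Cryab and Hspb8. The call of Hspb8 (adjusted p = 0.0184) was lost without activated array 1 (adjusted p = 0.0556) or quiescent array 4 (0.0524). Hsph1 read 7.30 to 9.37 (median 8.76) on activated and 10.46 to 10.85 (median 10.54) on quiescent arrays, without overlap (adjusted p = 2.78e-06). In the endoplasmic reticulum 6 of 23 folding genes rose, including the disulfide isomerase Pdia3 (2.01-fold), the retrieval receptor Kdelr2 (1.92-fold) and Erp29 (1.73-fold), while Herpud1, an induced component of protein degradation there, fell 2.09-fold. The stress transcription factors Atf5 and Ddit3 (CHOP), listed with one-carbon metabolism because they respond to amino acid supply, fell 2.66-fold and 2.35-fold.

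Genes of glycolysis and of several biosynthetic routes were higher. Of 12 glycolysis and lactate export genes 6 rose and 1 fell (median 0.49). Pkm, pyruvate kinase, read 10.54 to 11.81 (median 11.04) on activated and 8.86 to 10.20 (median 9.14) on quiescent arrays. Lactate dehydrogenase Ldha read 11.58 to 12.23 (median 11.73) and 9.88 to 10.92 (median 10.27). Both separated the groups, with rises of 3.37-fold and 2.73-fold (adjusted p = 3.31e-06 and 1.03e-05). The muscle-type phosphofructokinase Pfkm fell 2.86-fold. In serine and one-carbon metabolism 4 of 13 rose and the 2 that fell were Atf5 and Ddit3. Gldc, the glycine decarboxylase that feeds mitochondrial one-carbon units, read 9.49 to 10.49 (median 10.34) and 5.30 to 8.10 (median 6.95), did not overlap and rose by 3.33 ± 0.53 on the log2 scale (adjusted p = 5.64e-05). Psat1 of serine synthesis rose 2.82-fold. Of 4 measured pentose phosphate genes 1, Taldo1, rose (2.11-fold), and the list median was 0.05. In cholesterol synthesis 4 of 15 rose and 0 fell, including Lss (3.29-fold), Mvd (2.82-fold) and Fdps (2.71-fold). Oxidative phosphorylation subunits were called at 11 of 65 higher, near the 14.5% of all genes, and 1 lower. In the citric acid cycle 3 of 18 rose, also near that share, with Mdh2 (2.02-fold) first. Among amino acid and glucose transporters 4 of 17 rose and 2 fell. The amino acid transporter Slc7a5 rose 2.52-fold, while the transporters Slc38a2 and Slc6a9 fell 1.64-fold and 2.68-fold. Outside this list, the transferrin receptor Tfrc rose 2.61-fold.

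Enzymes of retinoid, xenobiotic and steroid metabolism fell: 15 of 22 were called lower and 1, the oxysterol hydroxylase Cyp7b1, higher (median of the list -1.42). Besides Ces1d, Inmt and Gsta3, the list holds Hsd11b1, which regenerates active glucocorticoid. It read 8.92 to 11.43 (median 9.26) on activated and 11.20 to 12.25 (median 11.93) on quiescent arrays, with activated array 3 alone inside the quiescent range, and fell 4.83-fold (adjusted p = 1.67e-05). Array 3 averaged 8.26 over the list, where the other activated arrays were at most 7.32 and quiescent arrays read 8.25 to 8.85 (median 8.67). The macrophage covariate left 9 called lower. Cyp7b1 rose 2.43-fold (adjusted p = 0.0223) and lost its call without activated array 2 (adjusted p = 0.0600), quiescent array 2 (0.0506) or quiescent array 3 (0.0675). Antioxidant and NRF2 target genes went both ways, 8 of 24 up and 3 down: glutaredoxin Glrx rose 2.99-fold, heme oxygenase Hmox1 2.33-fold and the lipid peroxidase Gpx4 1.79-fold, whereas Txnip, an inhibitor of thioredoxin and glucose uptake, fell 3.00-fold and secreted Gpx3 2.86-fold.

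Matrix genes were lower in old activated FAPs, above all those of basement membrane and elastic fibres. Of 13 measured laminin, nidogen, perlecan and collagen IV genes 12 fell and 0 rose (median -1.15). Col15a1, a collagen at the basement membrane surface, read 4.32 to 5.11 (median 4.70) on activated and 5.76 to 7.50 (median 7.11) on quiescent arrays, apart from each other, and fell 4.70-fold (adjusted p = 1.24e-06). The laminin chain Lamc1 fell 4.01-fold and the nidogen Nid2, which links laminin to collagen, 3.65-fold. Quiescent array 2 was the lowest of its group for these 3 genes and lay among the activated arrays for Lamc1 and Nid2. Of the 13 genes 4 were called lower with the macrophage covariate.

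Elastic fibre and latent TGF-beta binding genes fell in 9 of 12 cases (median -1.14), and 7 of them had no overlap, against 8.96% of all genes. The 1 member called higher, Emilin2, rose 1.79-fold (adjusted p = 0.0253) and lost its call without activated array 3 (adjusted p = 0.073), activated array 5 (0.0603) or quiescent array 3 (0.0629). Ltbp4, which stores latent TGF-beta and organizes elastic fibres, read 6.28 to 7.10 (median 6.72) on activated and 9.51 to 10.34 (median 10.19) on quiescent arrays. It had the smallest adjusted p among the genes named here, 5.99e-11, with a 10.6-fold fall (log2 change -3.40 ± 0.20). Fbln1 (fibulin) read 7.26 to 9.79 (median 8.47) and 10.70 to 11.59 (median 11.45). Eln (elastin) read 5.07 to 6.32 (median 6.03) and 7.25 to 8.41 (median 7.76). Ltbp1, another store of latent TGF-beta, read 5.65 to 7.33 (median 6.70) and 7.90 to 9.07 (median 8.92). No activated array reached a quiescent one for these 3 genes, which fell 7.15-fold, 3.74-fold and 4.31-fold. Tnxb, tenascin X, which links collagen and elastic fibres, fell 8.37-fold. In the elastic list 4 members were called lower with the macrophage covariate.

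Small proteoglycans that space collagen fibrils fell in 8 of 12 cases (median -1.04), including Lum (4.43-fold), Ogn (3.80-fold), Podn (3.24-fold) and Omd (2.82-fold), while the hyaluronan receptor Cd44 rose 1.95-fold. Of 8 fibrillar and related collagens that passed the filter 1, Col6a1, fell (1.96-fold) and 0 rose, a share under the 14.0% of all genes. The macrophage covariate gave 0 calls among these collagens, with a median of 0.24. Collagen processing went both ways, with 2 of 18 higher and 4 lower. The crosslinking oxidase Lox read 8.18 to 10.37 (median 9.08) on activated and 6.88 to 8.49 (median 7.76) on quiescent arrays, overlapping in part, and rose 2.70-fold (adjusted p = 0.00181). The collagen glycosyltransferase Colgalt1 rose 1.55-fold, while the procollagen enhancer Pcolce2 fell 3.79-fold, the prolyl hydroxylase P4ha1 3.46-fold and the transglutaminase Tgm2 1.72-fold. Of 16 proteases and inhibitors 7 fell and 1 rose. Timp1 read 12.80 to 13.74 (median 13.14) and 10.23 to 12.01 (median 10.80) and rose 4.67-fold, the only riser (adjusted p = 4.54e-06). Timp3 read 7.20 to 9.75 (median 8.33) and 11.20 to 11.94 (median 11.36) and fell 8.42-fold (adjusted p = 7.33e-08). The groups did not overlap for either inhibitor. Timp2 and the gelatinase Mmp2 fell 2.70-fold and 3.20-fold. Of 9 integrin and adhesion genes 4 fell and 1 rose. Itga11, the integrin subunit with which fibroblasts grip collagen, fell 6.26-fold, and Itgb4 and Itgb5 fell 3.52-fold and 1.65-fold. Acta2, smooth muscle actin, read 10.91 to 11.92 (median 11.72) on activated and 12.62 to 13.65 (median 12.82) on quiescent arrays and fell 2.75-fold (adjusted p = 6.19e-05) together with the smooth muscle myosin Myh11 (3.45-fold, detected on 1 of 6 activated and 5 of 6 quiescent arrays). Both are also among the 3 pericyte and smooth muscle markers counted lower above. Among 24 cytoskeletal genes that include Acta2 and Myh11, 6 rose and 3 fell. The actin-binding Pfn1 and Capg rose 2.77-fold and 1.74-fold.

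**Figure D4:**
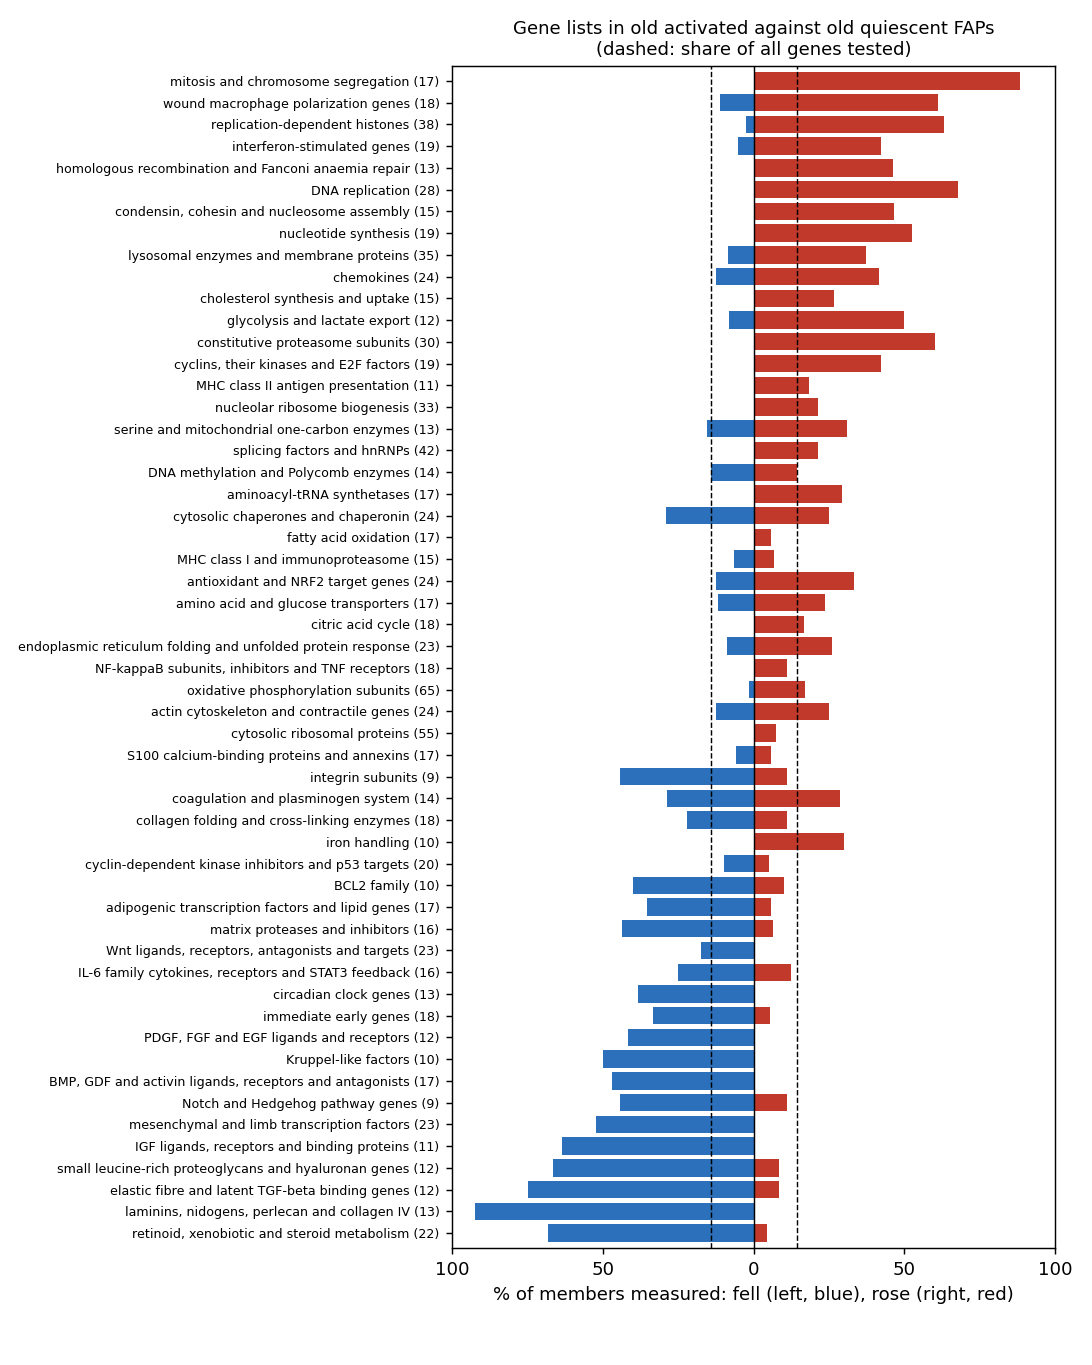
Share of the measured members (number in brackets) of each gene list that fell (left, blue) or rose (right, red) in old activated against old quiescent FAPs, in % of members measured, ordered by the list's median change. Dashed lines mark 14.0% lower and 14.5% higher, the shares of all genes tested.

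Ligands and receptors of several growth factor pathways were among the genes that fell. The BMP and activin list gave 8 of 17 lower, the IGF list 7 of 11, the Wnt list 4 of 23 and the PDGF, FGF and EGF list 5 of 12, and 0 members of these 4 lists were called higher. The Wnt share is near the 14.0% of all genes. With the macrophage covariate 4 BMP, 5 IGF, 1 Wnt and 2 PDGF, FGF and EGF genes were called lower. Among ligands, Bmp4 read 4.38 to 7.47 (median 5.89) on activated and 8.08 to 9.37 (median 8.95) on quiescent arrays. Igf2, a fetal-type growth factor, read 7.0 to 8.72 (median 7.94) and 10.21 to 11.07 (median 10.88). Neither overlapped, and they fell 7.81-fold and 7.52-fold (adjusted p = 5.74e-06 and 4.67e-07). The mesenchymal ligand Fgf10 read 4.26 to 6.26 (median 4.50) and 6.49 to 9.04 (median 7.92), with 1 of 6 activated arrays above background, and fell 8.80-fold. Inhba, the activin A subunit, fell 6.62-fold and the BMP antagonist Chrd (chordin) 6.42-fold. Among IGF-binding proteins Igfbp6 fell 5.80-fold and Igfbp5 2.69-fold, and the protease Htra1, which cleaves such proteins, 3.05-fold. Among receptors Egfr fell 2.97-fold, Pdgfra 2.14-fold and Pdgfrb 2.07-fold, and the Wnt co-receptor Lrp5 1.86-fold. Pdgfrb is also among the pericyte and smooth muscle markers counted lower above. Pdgfra separated the groups on all but 1 quiescent array, number 2, which at 11.6 fell among the activated values. The matricellular gene Ccn4, a Wnt target that FAPs secrete, read 5.71 to 8.58 (median 7.37) on activated and 4.35 to 6.51 (median 5.27) on quiescent arrays. It overlapped in part and rose 3.85-fold (adjusted p = 0.00418), with 3 of 6 quiescent arrays detecting it. In the Notch pathway 4 of 9 fell and 1 rose. The targets Heyl and Hes1 fell 3.00-fold and 2.37-fold with no overlap, with Heyl detected on 1 of 6 activated arrays. The DNA-binding partner Rbpj rose 2.18-fold and was detected on 5 of 6 activated and 1 of 6 quiescent arrays.

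Transcription factors of limb mesenchyme fell. In the mesenchymal and limb list 12 of 23 fell and 0 rose (median -0.96), including Nfib (3.62-fold), Meis1 (3.17-fold) and Osr2 (2.93-fold), and with the macrophage covariate 1 was called. Nfib read 5.57 to 9.24 (median 8.46) on activated and 9.76 to 10.13 (median 9.94) on quiescent arrays, the lowest of them activated array 4. Kruppel-like factors fell in 5 of 10 cases, with Klf9, a glucocorticoid-induced factor, down 4.25-fold, Klf7 2.35-fold and Klf4 2.06-fold. Of 18 immediate early genes 6 fell and 1, the phosphatase Dusp2, rose. The falls included Ier2 (3.44-fold), Fosb (2.23-fold), Fos (1.97-fold) and Egr1 (1.76-fold). Circadian clock genes fell in 5 of 13 cases, including Rora (3.32-fold), Bhlhe40 (2.11-fold) and Tef (1.80-fold). Of 10 genes of the BCL2 family and cell death 4 fell, the survival factor Bcl2 4.12-fold and the pro-apoptotic Bik 3.45-fold, while Bid rose at least 1.65-fold and was detected on no quiescent array.

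Genes of fat differentiation did not rise as a group at this time. Of 17 adipogenic factors and lipid genes 6 fell and 1 rose (median -0.29). The fatty acid-binding protein Fabp5, which macrophages also express, rose 4.77-fold, whereas Ebf2, a factor of preadipocytes, fell 2.97-fold, the desaturase Scd1 2.49-fold and the lipase Lpl 1.5-fold. The master regulator Pparg read 4.23 to 5.95 (median 5.34) on activated and 4.21 to 5.33 (median 4.46) on quiescent arrays and changed by 0.64 ± 0.29 (adjusted p = 0.0964). It was called higher without activated array 4 (adjusted p = 0.0219), without quiescent array 1 (0.0467) and without activated array 4 and quiescent array 2 together (0.02). Adiponectin (Adipoq), a gene of mature fat cells, changed by -0.90 ± 0.53 (adjusted p = 0.215) and reached 4 of 6 activated and 3 of 6 quiescent arrays, with its highest value, 9.07, on quiescent array 2. Plin1 and Cebpa did not pass the filter. Values this close to background cannot show that these genes stayed level.

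Genes of inflammation rose beside the macrophage markers whose levels are given above. Among 24 chemokines 10 rose and 3 fell. Ccl12, a monocyte attractant, read 9.96 to 11.31 (median 10.82) on activated and 6.05 to 9.83 (median 7.31) on quiescent arrays. Quiescent arrays were widely spread, all below the activated ones, and the gene rose 8.38-fold (adjusted p = 2.69e-05). Ccl9 and Ccl3 rose 7.19-fold and 6.17-fold. Of the wound macrophage list 11 of 18 rose (median 1.70) and 2 fell, the type 2 response gene Retnla by 8.31-fold and the angiogenic factor Vegfa by 2.48-fold. Retnla thus moved against Arg1 and Chil3, with 4.79 to 6.98 (median 6.02) on activated and 7.08 to 10.60 (median 9.05) on quiescent arrays and no overlap. Among macrophage markers Lyz1 (lysozyme, whose near-identical twin may share its probe) rose 2.43-fold and Laptm5 1.71-fold. Both lay near the top of the scale, Laptm5 at 13.91 to 14.13 (median 14.01) on activated and 12.71 to 14.05 (median 13.17) on quiescent arrays and Lyz1 at 13.86 to 14.23 (median 14.16) and 11.87 to 14.23 (median 12.36). On quiescent array 2 the wound list averaged 9.44, inside the activated range of 9.12 to 9.84 (median 9.52), while the other 5 quiescent arrays reached at most 8.20. With the macrophage covariate 0 of the 24 chemokines and 4 of the 18 wound genes were called higher. The wound gene Mrc1 is also in the macrophage list that makes this covariate.

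Lysosomal, interferon and coagulation genes completed this group. Lysosomal enzymes and membrane proteins rose in 13 of 35 cases and fell in 3. Legumain (Lgmn) rose 6.16-fold, cathepsin C (Ctsc) 4.05-fold, glucuronidase (Gusb) 2.69-fold and cathepsin D (Ctsd) 2.60-fold, and the glycogen-degrading Gaa fell 2.11-fold. Without quiescent array 2 and activated array 4 the count was 19, and with the macrophage covariate 0. Interferon-stimulated genes gave 8 of 19 higher and 1 lower, among them Ifit3 (4.96-fold), the RNA helicase Dhx58 (4.78-fold) and the ISG15 protease Usp18 (3.99-fold). The macrophage covariate left 0 called higher. Class II antigen presentation gave 2 of 11 higher, near the 14.5% of all genes, and 0 lower. The thiol reductase Ifi30 (2.93-fold) was among the 2, and 5 were higher without quiescent array 2 and activated array 4. In coagulation 4 of 14 rose and 4 fell. Coagulation factors F10 (9.58-fold), F13a1 (5.24-fold) and F7 (4.34-fold) and the urokinase receptor Plaur (2.68-fold) rose, while the anticoagulant receptor Thbd and the thrombin receptor F2r fell 2.29-fold and 2.32-fold. F10 read 7.85 to 10.85 (median 8.46) on activated and 4.27 to 7.61 (median 5.45) on quiescent arrays, highest on activated array 4. Complement genes fell in 6 of 7 cases and rose in 0, including the regulators Clu (7.48-fold) and Serping1 (4.69-fold) and the component C2 (4.10-fold), and 5 were called lower with the macrophage covariate. In the list of NF-kappaB subunits, inhibitors and TNF receptors 2 of 18 rose, under the 14.5% of all genes, with Tnf up 2.06-fold from 1 of 6 detecting quiescent arrays. In the IL-6 list 4 of 16 fell and 2 rose. The feedback inhibitors Socs3 and Socs1 fell 2.18-fold and 1.74-fold and the shared receptor Il6st 1.55-fold, although Osm rose. Il6 itself changed by -0.86 ± 0.37 (adjusted p = 0.0827), overlapping at 5.45 to 7.98 (median 6.54) and 6.66 to 8.48 (median 7.27), and was called lower without activated array 6 (adjusted p = 0.017), without quiescent array 5 (0.0475) or with the macrophage covariate (0.0229). S100a4, a calcium-binding protein of fibroblasts and macrophages, read 9.07 to 10.51 (median 9.41) on activated and 6.37 to 8.35 (median 7.03) on quiescent arrays, the groups apart, and rose 5.48-fold (adjusted p = 3.05e-06).

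Counts in several lists moved by over 1.5 times when 1 array was left out. Without quiescent array 2, lysosomal genes called higher went from 13 to 20 and class II genes from 2 to 5, and class II genes went to 1 without activated array 1 or quiescent array 5 or 6. Antioxidant genes called higher went from 8 to 4 without quiescent array 5 and to 5 without activated array 3 or 5 or quiescent array 3. Amino acid and glucose transporters called higher went from 4 to 2 without quiescent array 3, and cholesterol genes from 4 to 7 without quiescent array 5. Circadian genes called lower went from 5 to 3 without activated array 1, 2 or 5 or quiescent array 3 or 6, T and NK cell markers from 5 to 3 without activated array 2 or 3 or quiescent array 3 or 6, and muscle fibre genes from 4 to 2 without activated array 2, 3, 4 or 6 or quiescent array 4, 5 or 6. Pericyte and smooth muscle markers called lower went from 3 to 5 without activated array 4, and cell cycle inhibitors from 2 to 4 without activated or quiescent array 3. The 2 NF-kappaB genes became 1 without activated array 3 or 4 or quiescent array 1, 3 or 5, and the 2 risen IL-6 genes became 1 without activated array 2, 3 or 4 or quiescent array 3, 4, 5 or 6. The 1 adipogenic gene called higher became 3 without activated array 4 and 2 without quiescent array 1 or 2, and the 1 collagen called lower became 3 without activated array 6 and 2 without quiescent array 2. Other lists with 2 calls or fewer in a direction moved by 1 or 2 calls.

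The macrophage covariate gave these counts for the lists not yet set beside it. Called higher were 3 nucleotide, 1 repair, 5 condensin, cohesin and nucleosome, 4 cyclin and E2F, 3 nucleolar, 2 ribosomal protein, 2 aminoacyl-tRNA synthetase and 3 splicing genes, and 2 cyclin genes were called lower. In metabolism 3 glycolysis, 1 one-carbon, 6 cholesterol, 3 oxidative phosphorylation, 1 citric acid cycle and 2 antioxidant genes were called higher. Called lower were 2 one-carbon and 1 antioxidant genes. In either direction 0 pentose phosphate genes and 0 amino acid and glucose transporters were called. Chaperones gave 0 higher and 5 lower, and endoplasmic reticulum genes 3 and 1. In the matrix 3 small proteoglycans, 4 proteases and inhibitors, 3 integrins, 3 cytoskeletal and 2 collagen processing genes were called lower, and 3 collagen processing genes and 1 gene of the protease and inhibitor list higher. Among regulators 3 Notch, 2 Kruppel-like, 4 immediate early, 2 clock, 2 cell cycle inhibitor, 1 cell death and 1 adipogenic genes were called lower. Class II genes gave 0 higher and 6 lower, 2 coagulation, 2 IL-6 and 1 NF-kappaB genes were lower and 0 of these 3 lists higher, and FAP markers gave 5 lower and 1 higher.

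Few of these changes differed from those in young mice by the test of the difference itself. The old change minus the young change was called for 15 of 7576 genes (0.198%), 13 higher and 2 lower, and 10 of the 15 were also called in old FAPs. At an unadjusted p under 0.05, which a share of 0.05 of genes would pass by chance, it held for 651 of 7576. The difference carries a larger SE than either change, so a gene not called may still differ. The 15 became 39 without old quiescent array 2 and 28 without old quiescent array 4. The 8 highest were genes that fell in young activated arrays and fell less, or were not called, in old ones. Tcf15, a transcription factor of endothelial cells, changed by -1.38 ± 0.35 in old and -4.37 ± 0.35 in young FAPs, a difference of 3.00 ± 0.50 (adjusted p = 0.00900). Robo4 and Gpihbp1, both endothelial, changed by -0.66 ± 0.37 and -0.73 ± 0.34 in old FAPs, neither called, and by -3.60 ± 0.37 and -3.49 ± 0.34 in young. Their differences were 2.94 ± 0.52 and 2.77 ± 0.48 (adjusted p = 0.00942 and 0.00900). The endothelial adhesion gene Icam2 and the retinoid-binding Rbp7 differed by 2.31 ± 0.49 and 2.27 ± 0.39, the hemoglobin gene Hba-a1, whose probe may read its near-identical copy, by 2.31 ± 0.40, the sulfotransferase Sult1a1 by 2.84 ± 0.53 and Cachd1 by 2.56 ± 0.42. The Icam2 difference had an adjusted p of 0.0433 and was lost without any one of the 6 activated arrays or of quiescent arrays 3 and 6, where the adjusted p reached 0.0991. Ltbp4 fell in both ages and by 1.5 ± 0.28 less in old FAPs. With no detection filter Angptl4, Icam2, Stau2 and Sult1a1 were not called for a difference, and with 75th percentile scaling Ltbp4 was not.

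Angptl4, a lipase inhibitor induced by fatty acids, read 9.86 to 12.85 (median 11.23) on old activated and 9.33 to 11.27 (median 10.60) on old quiescent arrays and changed by 0.85 ± 0.42 (adjusted p = 0.135), against 3.83 ± 0.42 in young FAPs. Without old activated array 4 the old change was called higher (adjusted p = 0.0363). The difference of -2.98 ± 0.59 (adjusted p = 0.0276) was lost without old activated array 1, 2, 4 or 6, with adjusted p up to 0.0573. Stau2, an RNA-binding protein, read 5.19 to 5.96 (median 5.79) on activated and 6.15 to 7.72 (median 7.06) on quiescent old arrays and fell 2.51-fold without overlap, and it changed by 0.78 ± 0.29 in young FAPs (difference -2.11 ± 0.41, adjusted p = 0.0223). Endothelial markers averaged 9.04 to 9.92 (median 9.37) on young quiescent and 6.26 to 7.48 (median 6.95) on young activated arrays, and in old arrays the 2 states lay closer together, as given above. Red blood cell genes averaged 8.86 to 9.66 (median 9.33) and 5.84 to 7.05 (median 6.44) in young arrays. The part of these cell mixes in the differences was not tested. Ccn4 rose in both ages, with a difference of -1.28 ± 0.69 (adjusted p = 0.635), which did not pass the test.

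**Figure D5:**
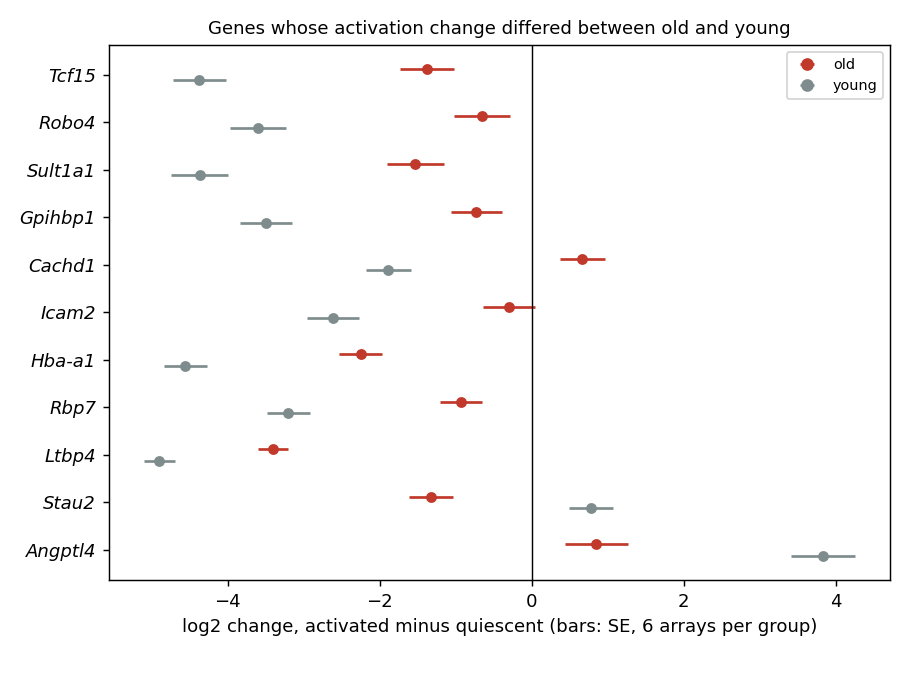
Log2 change from quiescent to activated FAPs (horizontal axis) in old (red) and young (grey) mice. Shown are 11 of the 15 genes whose change differed between the ages, ordered by the difference. Bars are SE from the fit over all 24 arrays, with 6 arrays per group. For the upper 9 genes the young change lies further to the left, and for Stau2 and Angptl4 further to the right.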

How the data were processed

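The authors deposited, per the file headers, non-normalized probe intensities and a detection p-value for each probe on each of 24 Illumina bead arrays (25697 probes), and a table of normalized log2 values whose column medians are all 6.71. Partek is named per the submitters' processing notes, with no settings. Precision is limited by how many arrays each group has.

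Intensities were background-corrected by normexp with the detection p-values (offset 16), quantile-normalized and put on the log2 scale with limma 3.58.1 in R 4.3.3. A probe was retained when 6 or more of the 24 arrays detected it at p under 0.01. A gene could thus pass through 1 group alone, and its higher level in that group is then partly fixed by the filter. Each gene was represented by its brightest retained probe (1529 genes had over 1), leaving 7576 named genes and 572 unnamed probes. Gene names come from the platform annotation, which names 1 gene for 23978 probes, several for 0 and none for 1719, and 23962 matched RefSeq by Entrez ID. The 4 groups were fitted in 1 limma model over 24 arrays, with Benjamini-Hochberg adjustment over all 8148 features. The p-values measure the spread between these arrays. Replicate numbers did not pair arrays across states (correlations of deviations from -0.0903 to 0.135). Where a group detected a gene on none of its arrays, the fold is a lower bound, set against the lowest detected signal of each array.

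Genes named are the 15 largest rises and falls, the leading members of each list, the age differences, and genes chosen in advance. Members and lists were chosen with earlier results of these data known. The procedure was run on simulated data for this comparison (200 changed genes among 8148 features, 5 runs). There it recovered 50.2% of 2-fold and 93.2% of 4-fold changes, with 4.02% of calls false. Whether these rates hold for the arrays themselves, where 2155 genes were called, was not tested. Alternatives covered background, normalization, filter, array weights, arrays left out, a replicate block and a macrophage covariate, the last applied to named genes, lists and the age difference after seeing the data. Promoters come from RefSeq, GRCm38.p6.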

Additional observations from a re-analysis of the deposited data

Results flagged for a closer look

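Of 434 sets of 6 values (217 genes in each old group) 46 held an array whose gap to the rest passed Dixon's 95% limit, and chance flags about 1 in 20 sets. The arrays differed in how often: old quiescent array 2 held 17, old activated array 3 held 12 and old activated array 4 held 6.

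Old quiescent array 2 stood apart, by log2 intensity, for Arg1 (5.88), Cdkn1c (11.9), Col15a1 (5.76), Crispld2 (7.57), F13a1 (9.28), F7 (6.91), Gpx3 (10.1), Lamc1 (5.32), Ltbp1 (7.9), Mcm10 (6.54), Nid2 (6.93), Ogn (11), P2ry1 (8.3), Pdgfra (11.6), Podn (6.14), Rbp7 (10.7) and Snrpa1 (7.48). The fibroblast genes Pdgfra, Ogn, Podn and Ltbp1 and the basement membrane genes Col15a1, Lamc1 and Nid2 were low on it, and Arg1, F13a1, F7 and the replication gene Mcm10 were high. Its macrophage and endothelial levels are given with the markers.

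Old activated array 3 stood apart for Cd44 (7.86), Cldn10 (8.76), Crispld2 (6.41), Fgf10 (6.26), Gsta3 (7.82), Hsd11b1 (11.4), Igfbp6 (10.4), Inmt (12.9), Klf9 (11.1), Serping1 (11.1), Sult1a1 (9.35) and Tceal5 (5.55). Except for Cd44, these genes fell in activated arrays, and array 3 lay nearer the quiescent level than the other 5 activated arrays. Old activated array 4 stood apart for Alox5ap (11.5), Bid (6.89), F10 (10.9), Hsph1 (7.3), Lyz1 (13.9) and Nfib (5.57).

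On the remaining arrays the values were Chil3 (8.55) and Il6st (7.1) on activated array 1, Ddit3 (6.1) and H2bc6 (5.5) on activated array 2, Egr1 (13.9) on quiescent array 1, Ncaph (6.61) and Usp18 (4.31) on quiescent array 3, Cct6a (8.18), Ctsd (4.38) and Rpl13a (9.3) on quiescent array 4 and Cdkn2a (5.9) on quiescent array 6.

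The change after glycerol differed between old and young FAPs, by the interaction test, for 11 genes named in the report. The old minus young difference in log2 change was 3.00 for Tcf15, 2.94 for Robo4, 2.84 for Sult1a1, 2.77 for Gpihbp1, 2.56 for Cachd1, 2.31 for Icam2, 2.31 for Hba-a1, 2.27 for Rbp7, 1.5 for Ltbp4, -2.11 for Stau2 and -2.98 for Angptl4. The calls of Icam2 and Angptl4 are lost without single arrays, as given beside them.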

How the results depend on the processing

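The count of 2155 genes changed in old FAPs lay between 1868 and 2264 with no background correction, a larger offset, the deposited log2 values, 75th percentile scaling, no detection filter, array weights or a replicate block, and 0 genes were called in the opposite direction under any of these. With the replicate block, which the labels do not support as a pairing, 2264 genes were called and 2087 of them were among the 2155; 1 of 6 arrays of each state correlated best with its own number. Leaving out 1 old array at a time gave 1952 to 2298 calls (973 to 1152 higher and 967 to 1146 lower), and the old arrays alone 1522. Restricting to probes detected on every old array left 3749 genes and 1343 calls (678 higher, 665 lower), since fewer genes were tested. With the macrophage score as a covariate 593 were called (233 higher, 360 lower), 495 of them shared. The score itself differs between the states, and this fit cannot fully tell score and state apart. Of 207 called genes named here 202 kept their call under each left-out array, and the exceptions are given with the arrays above. Under every setting that tested them, the macrophage covariate aside, 198 were called; besides those exceptions Dusp2 was not called with array weights, Cd44 and Tyms with the old arrays alone and Vars without quiescent array 2 and activated array 4. Under the macrophage covariate 92 lost their call with the sign kept, Osm, Trem2, Syngr1, F10 and Pdgfra among them.

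The 15 age differences became 25 on probes detected on every old array, 9 with no detection filter, 28 with array weights, 15 with the replicate block, 42 without old quiescent array 2 and old activated array 4, 53 with the macrophage covariate, and 10 to 39 with 1 old array left out (39 without quiescent array 2, 28 without quiescent array 4). The cause was not tested. Under the macrophage covariate the sign turned for Cdkn1a (-0.0259), Dusp2 (-0.28), Fabp5 (-0.68) and Lyz1 (-0.0913). Lyz1, Laptm5 and Ms4a6d are members of the list whose mean makes the score. The loss of their call or sign in that fit was therefore largely fixed in advance. Cdkn2a, not called, ranged from -0.209 to 0.171 over the arrays left out one at a time, above 0 without activated array 1 or 5 or quiescent array 6. The mitosis median of 2.23 was 0.93 with no background correction and 0.888 on the deposited values, and the retinoid list's -1.42 was -0.796 and -0.76. Other list medians moved too: on the deposited values those of nucleotide supply from 0.763 to 0.392, wound macrophages from 1.7 to 1.04, small proteoglycans from -1.04 to -0.626 and histones from 1.11 to 0.651, and under the macrophage covariate that of limb factors from -0.956 to -0.349. The sets without quiescent array 2 and activated array 4 for the age difference, and for list counts, were chosen after seeing the data.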
